A study of Homo sapiens with 12 samples.

Results

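Clusters of RNA crosslinked to the human translation initiation factor eIF3 were examined for 10 mRNAs that encode proteins of the cytosolic ribosome: RPS2, RPS4X, RPS15A, FAU and GNB2L1 of the small subunit and RPL9, RPL10, RPL24, RPL35A and RPL38 of the large subunit. They were taken by gene name from the authors' table of clusters and made up 34 of its 1477 clusters and 10 of its 479 genes. RPL17 and RPL23A, known snoRNA host genes with intronic clusters, were not among the 10 and are described only for contrast. The series is a PAR-CLIP experiment in the 293T line of human embryonic kidney origin, in which all cells had taken up 100 µM 4-thiouridine for 14 h and were crosslinked at 0.15 J per square cm. This uridine analog crosslinks to bound protein and is afterwards read as C in place of T, so that T-to-C conversions mark bound RNA. All 12 libraries came through an antibody against the eIF3b subunit, and after RNase T1 digestion complexes of protein and RNA were excised from a gel, with 3 libraries each labelled for eIF3a, eIF3b, eIF3d and eIF3g. The labels do not say whether the 3 came from separate cultures, and there was no control library. The table gives 1 value per cluster and subunit, so the spread between libraries is not known for any of them.

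Ribosomal proteins join ribosomal RNA to form the small and the large ribosomal subunit. eIF3 binds the small subunit and helps it onto the mRNA, usually by way of the 5′ UTR. Most ribosomal protein mRNAs begin with a terminal oligopyrimidine tract, an unbroken run of C and T (U in the RNA) at the cap, through which their translation follows nutrient and growth signals.

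The annotated transcription starts of these genes are shown because the 5′ UTR, where most of their clusters lay, begins there. The windows are from RefSeq (GRCh38.p14), run 5′ to 3′ along the mRNA strand, and hold 12 bases before and 18 bases from the annotated start. Capitals mark the run of at least 5 C or T that contains the first transcribed base, on the mRNA strand only. RefSeq windows were found for 8 of the 10 genes, with 3 starts for RPL10, and not used here for RPS2 and RPS15A.
FAU (chr11:65122117-65122146, minus strand): cctcgCTTCTTCCTCTTTCTCgactccatc
GNB2L1 (chr5:181243889-181243918, minus strand): gggCTTTTCTCTCTCTCTTTCactgcaagg
RPL24 (chr3:101686701-101686730, minus strand): ccatgaTTCTCTCTTTCTTTTCgccatctt
RPL35A (chr3:197950178-197950207, plus strand): cggggcctcgTCCTTCTCTTaccgccatct
RPL38 (chr17:74203666-74203695, plus strand): ggaagtctcgTTCTTTTTCgtccttttccc
RPL10, start 1 (chrX:154398053-154398082, plus strand): ttccactctcagaaatatacgtctgtcaca
RPL10, start 2 (chrX:154398365-154398394, plus strand): gcggaggagcgCCTCTTTCCCTTCggtgtg
RPL10, start 3 (chrX:154398485-154398514, plus strand): ttttcgttgcagccactgaagatcctggtg
RPL9 (chr4:39458905-39458934, minus strand): cgtaatgacgacagacgttctttctttgct
RPS4X (chrX:72277231-72277260, minus strand): gtctccagccccaatttctacgcgcaccgg

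A run at the start was present in 6 of the 8 genes, and absent at the annotated starts of RPL9 and RPS4X. Counted with bases before the annotated start, it was 18 bases long in GNB2L1, 16 in FAU and RPL24, 13 at the second start of RPL10, 10 in RPL35A and 9 in RPL38. From the annotated start on, it held 9 bases in GNB2L1 and FAU, 10 in RPL24, 12 in RPL10, 8 in RPL35A and 7 in RPL38. Counted by start, 6 of the 10 starts of these genes hold such a run, beside 9.60% of all 35116 starts in the same RefSeq table. Counted by gene, 51 (79.7%) of the 64 cytosolic ribosomal protein genes with a window hold it, these 8 included. With 6 of 8, the genes shown here do not stand apart from their family in this respect. T, which gives the uridines that can crosslink, made up between 18% and 44% of the first 50 transcribed bases over the 10 starts. Their median was 31%, against a median of 20% and quartiles of 14% and 26% over all starts. Of the 10 starts, 9 were above 20%. Whether this bears on the crosslinking was not tested. The sequence under the clusters themselves was not read, since the clusters are placed on hg19 and no sequence of that build was used here.

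The first question was in which part of these mRNAs eIF3 was crosslinked. All of the genes except RPL24 had their clusters in the 5′ UTR, and RPL24 had its clusters in an intron. In clusters, 30 of 34 were annotated as 5′ UTR, or 88.2% (95% Wilson interval 73.4 to 95.3), beside a background of 67.8% over all clusters of the table. In genes, 9 of 10 had a 5′ UTR cluster, beside 69.1% of all genes. Introns held 4 of the 34 clusters, or 11.8%, all of RPL24, beside 8.46% of all clusters. None of the 10 had a cluster in a coding exon, at a start codon or in a 3′ UTR. The shares of those regions over all clusters are not given here, so nothing is read from this absence. The interval treats clusters as independent, yet the 34 clusters came from only 10 places, so it is too narrow and no test was made.

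The second question was which subunits each mRNA was found with. RPS2, RPS4X, RPS15A, FAU, RPL24, RPL35A and RPL38 were listed for all 4 subunits, 7 of 10 genes, beside 33.6% of all 479 genes. RPL9 was listed for eIF3a, eIF3b and eIF3d, GNB2L1 for eIF3a and eIF3g, and RPL10 for eIF3b alone. With only clusters at or above the median reads of their subunit, 3 genes were in all 4 lists (RPS4X, RPS15A and RPL24), beside 22.1% of the 307 genes that had such a cluster. By class, over all clusters, 4 of the 5 small subunit genes and 3 of the 5 large subunit genes were in all 4 lists. Each gene had a single place of crosslinking, and no other gene name was given to a cluster at these 10 places. The lowest read count in the whole table is 8, and a gene missing from a list may have had fewer reads or failed a criterion that the sources used here do not give.

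Levels were read within each subunit, since reads per library are not in the table. By reads, 20 of the 34 clusters were at or above the median of their own subunit, beside 51.3% of all clusters. The count was 6 of 9 with eIF3a, 6 of 9 with eIF3b, 4 of 8 with eIF3d and 4 of 8 with eIF3g. The median percentile of the clusters within their subunit was 53.1 with eIF3a, 57.7 with eIF3b, 54.9 with eIF3d and 36.3 with eIF3g. Thus the medians lay near the middle of the lists of eIF3a and eIF3b, and of eIF3d only with the intronic RPL24 included. With 5′ UTR clusters only, the medians were 51.0 with eIF3a, 55.0 with eIF3b, 37.7 with eIF3d and 27.0 with eIF3g. These were ranked among the 5′ UTR clusters of the subunit alone, so they are not on the same scale as the medians above. The median percentile of these mRNAs was lowest in eIF3g. In the full lists single clusters spread widely in every subunit. They ran from 6.8 to 93.5 in eIF3a, 2.9 to 92.1 in eIF3b, 3.8 to 94.7 in eIF3d and 2.0 to 86.2 in eIF3g. In eIF3d no cluster lay between FAU at 37.2 and RPS4X at 72.6, so the median of 54.9 stands for none of them. The medians therefore do not place the set as a whole.

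**Figure D1:**
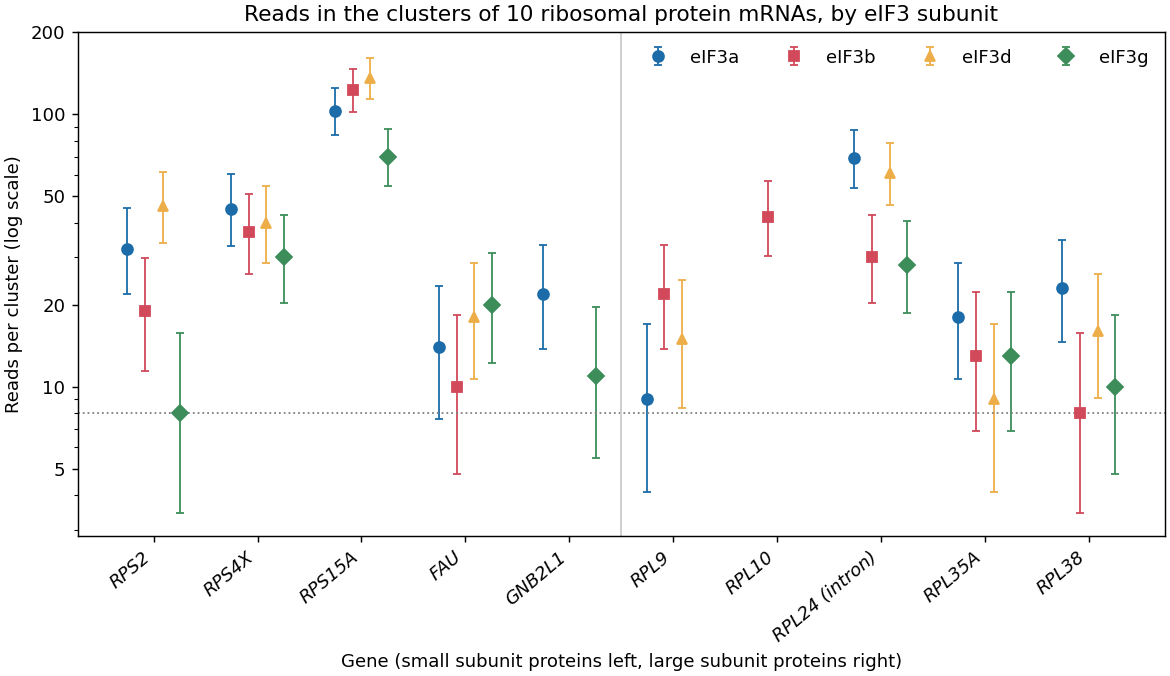
Reads per cluster (log axis) of each ribosomal protein gene, by subunit, with exact 95% Poisson intervals that cover counting error only; small subunit genes are left of the vertical line and the dotted line marks 8 reads, the lowest count in the table. RPS15A has the most reads in every subunit, from 70 to 136, and the eIF3g cluster of RPS2 and the eIF3b cluster of RPL38 sit on the dotted line.

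Among the small subunit genes, RPS15A, which encodes the core protein uS8, was the strongest (Ensembl gene ENSG00000134419; hg19 chromosome 16, 18801584 to 18801623 over all subunits, minus strand, 5′ UTR). It held 103 reads with eIF3a, 123 with eIF3b, 136 with eIF3d and 70 with eIF3g. These placed it at rank 25 of 375, 24 of 298, 22 of 403 and 56 of 401. The exact Poisson intervals of eIF3a, eIF3b and eIF3d, 84.1 to 125, 102 to 147 and 114 to 161 reads, overlapped one another, and that of eIF3g, 54.6 to 88.4, overlapped only the one of eIF3a. Such intervals cover counting error only, and the reads may include PCR copies, since the use of the random barcode of replicate 1 is not given. Reads of different subunits are not scaled for depth in these gene paragraphs, so their order alone shows no preference for a subunit. Overlap of intervals does not show equal reads.

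RPS4X, the X-linked gene for the core protein eS4, had the most even reads of the genes in all 4 lists (ENSG00000198034; chromosome X, 71497079 to 71497102, minus strand, 5′ UTR). It had 45 reads with eIF3a, 37 with eIF3b, 40 with eIF3d and 30 with eIF3g, and the highest was 1.5 times the lowest. All 4 intervals overlapped. Its cluster had the same start and end in every subunit, and its percentile within the subunit stayed between 67.0 and 78.1.

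RPS2 was the least even (ENSG00000140988; chromosome 16, 2014729 to 2014761, minus strand, 5′ UTR). It encodes uS5, which lines the channel where mRNA enters the small subunit. It had 32 reads with eIF3a, 19 with eIF3b, 46 with eIF3d and 8 with eIF3g, a range of 5.75-fold. The eIF3g count, with an interval of 3.45 to 15.8 reads, lay below the intervals of eIF3a (21.9 to 45.2) and eIF3d (33.7 to 61.4). It ranked 79 of 403 in eIF3d and 386 of 401 in eIF3g.

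FAU encodes the small subunit protein eS30 fused to a ubiquitin-like protein that is cut off (ENSG00000149806; chromosome 11, 64889571 to 64889596, minus strand, 5′ UTR). It had 14 reads with eIF3a, 10 with eIF3b, 18 with eIF3d and 20 with eIF3g, all below the median of their subunit or at it, and the 4 intervals overlapped. GNB2L1, now called RACK1, encodes a scaffold protein on the head of the small subunit that also binds protein kinase C (ENSG00000204628; chromosome 5, 180670831 to 180670851, minus strand, 5′ UTR). It had 22 reads in eIF3a and 11 in eIF3g, with intervals of 13.8 to 33.3 and 5.49 to 19.7 reads that overlapped. It was not in the lists of eIF3b and eIF3d.

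Among the large subunit genes, RPL24 had the most reads, in an intron (ENSG00000114391; chromosome 3, 101405446 to 101405470, minus strand). It encodes eL24, which takes part in a bridge between the ribosomal subunits. It had 69 reads with eIF3a, 30 with eIF3b, 61 with eIF3d and 28 with eIF3g. The intervals of eIF3a (53.7 to 87.3) and eIF3d (46.7 to 78.4) lay above those of eIF3b (20.2 to 42.8) and eIF3g (18.6 to 40.5). Set against all shared loci, as described below, RPL24 reached 2-fold for eIF3a and eIF3d over eIF3g, but not over eIF3b. The cluster had the same start and end in all 4 subunits.

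RPL10 encodes uL16, one of the last proteins to join the large subunit (ENSG00000147403; chromosome X, 153626805 to 153626830, plus strand, 5′ UTR). Its single cluster had 42 reads in eIF3b, with an interval of 30.3 to 56.8, and ranked 70 of 298. Of the 94 genes that were listed for a single subunit, 7 had a strongest cluster of 42 or more reads, and the median was 15. Of the 12 genes found only with eIF3b, 2 had as many, RPL10 among them.

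RPL38 and RPL35A had 23 reads or fewer in every subunit. RPL38 encodes eL38, which in mice is needed for normal patterning of the axial skeleton (ENSG00000172809; chromosome 17, 72199825 to 72199846, plus strand, 5′ UTR). It had 23 reads with eIF3a, 8 with eIF3b, 16 with eIF3d and 10 with eIF3g. RPL35A encodes eL33 and is mutated in some families with Diamond-Blackfan anaemia (ENSG00000182899; chromosome 3, 197677059 to 197677086, plus strand, 5′ UTR). It had 18 reads with eIF3a, 13 with eIF3b, 9 with eIF3d and 13 with eIF3g. The intervals of each gene overlapped between all subunits, although for RPL38 only just between eIF3a (14.6 to 34.5) and eIF3b (3.45 to 15.8). In the ratios below, RPL38 was called higher for eIF3a over eIF3b and over eIF3g, and RPL35A for eIF3a over eIF3d.

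RPL9 encodes uL6 (ENSG00000163682; chromosome 4, 39460153 to 39460190, minus strand, 5′ UTR). It had 9 reads in eIF3a, 22 in eIF3b and 15 in eIF3d, with overlapping intervals, although eIF3a over eIF3b was called lower in the ratios below. It was not in the eIF3g list.

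Compared with one another per nucleotide of cluster span, which does not account for how much of each mRNA the cells held, RPS15A and RPL24 led in eIF3a, with 2.86 and 2.88 reads per nt. RPS15A led alone in the other subunits, with 3.32 for eIF3b, 3.49 for eIF3d and 2.69 for eIF3g. The next genes were RPL10 in eIF3b with 1.68, RPL24 in eIF3d with 2.54 and RPS4X in eIF3g with 1.30. FAU, RPL35A and RPL38 had between 0.346 and 1.10 reads per nt, a range that also held every cluster of RPL9, the eIF3g cluster of GNB2L1 and those of RPS2 in eIF3a, eIF3b and eIF3g. These genes had no common order over the subunits, and most neighbours differed by a few reads.

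The clusters were next compared for where they began and ended. Their spans ran from 10 to 39 nt with a median of 24 nt, which was also the median of all other clusters. RPS4X, GNB2L1, RPL24 and RPL38 had identical edges in each subunit that listed them. In RPS15A and RPS2 the 5′ edge was the same in all 4 subunits, while the 3′ edge varied over 13 and 14 nt. FAU and RPL35A differed by 1 nt at the 5′ edge. RPL9 was the exception, since its 5′ edge varied over 27 nt and its 3′ edge over 5 nt. Its eIF3a cluster spanned only 10 nt, the shortest span in the table, which 1 further cluster shared. Among the 9 genes with more than 1 subunit, 6 had the same 5′ edge throughout and 6 the same 3′ edge, or 66.7% each. Of 429 other loci, 58.5% had a common 5′ edge and 56.6% a common 3′ edge, so shared edges were common across the table.

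**Figure D2:**
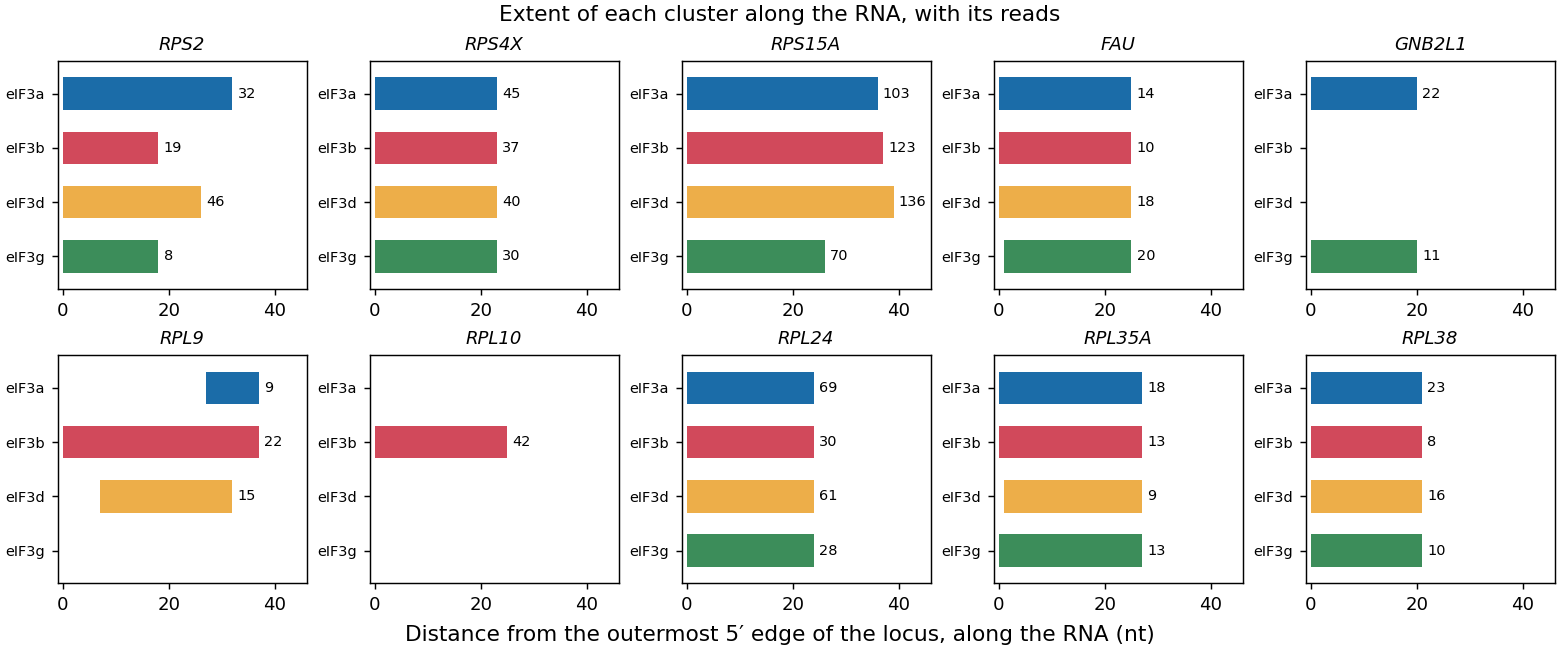
Extent of each cluster along the RNA, in nt from the outermost 5′ edge of its locus, for the 10 genes, with 1 bar per subunit and the reads printed beside it. The bars start together in every gene except FAU and RPL35A, which differ by 1 nt, and RPL9, where they are offset by up to 27 nt, and the empty rows are subunits without a cluster.

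T-to-C conversions were then set against reads. In eIF3a, eIF3b and eIF3g the 26 clusters carried close to 1 conversion per read, from 0.857 to 1.54, and 18 of them had at least as many conversions as reads. The medians were 1.02 in eIF3a, 1.10 in eIF3b and 1.09 in eIF3g, beside 1.02, 1.05 and 1.02 in the other clusters of those subunits. RPS15A, for example, had 95 conversions in 103 reads in eIF3a, 129 in 123 in eIF3b and 87 in 70 in eIF3g. The highest ratio was that of RPL35A in eIF3g, 20 conversions in 13 reads.

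In eIF3d the number of conversions hardly followed the reads. The 8 clusters of ribosomal protein mRNAs had between 4 and 10 conversions while their reads ran from 9 to 136. RPL35A had 6 in 9 reads and RPL9 had 6 in 15, whereas RPS4X had 4 in 40, RPS2 had 4 in 46 and RPS15A had 10 in 136. The ratio therefore fell with depth, with 0.667 conversions per read in RPL35A and 0.0735 in RPS15A. The median was 0.177, beside 0.182 in the other eIF3d clusters. On log2 scales the slope of conversions against reads, a description over clusters that share their libraries, was 0.177 over the 8 points of eIF3d. It was 0.952 in eIF3a, 0.975 in eIF3b and 1.05 in eIF3g. The sources used here do not say what the eIF3d entries count, so the lower ratio is a property of the deposited numbers and cannot be read as less crosslinking.

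**Figure D3:**
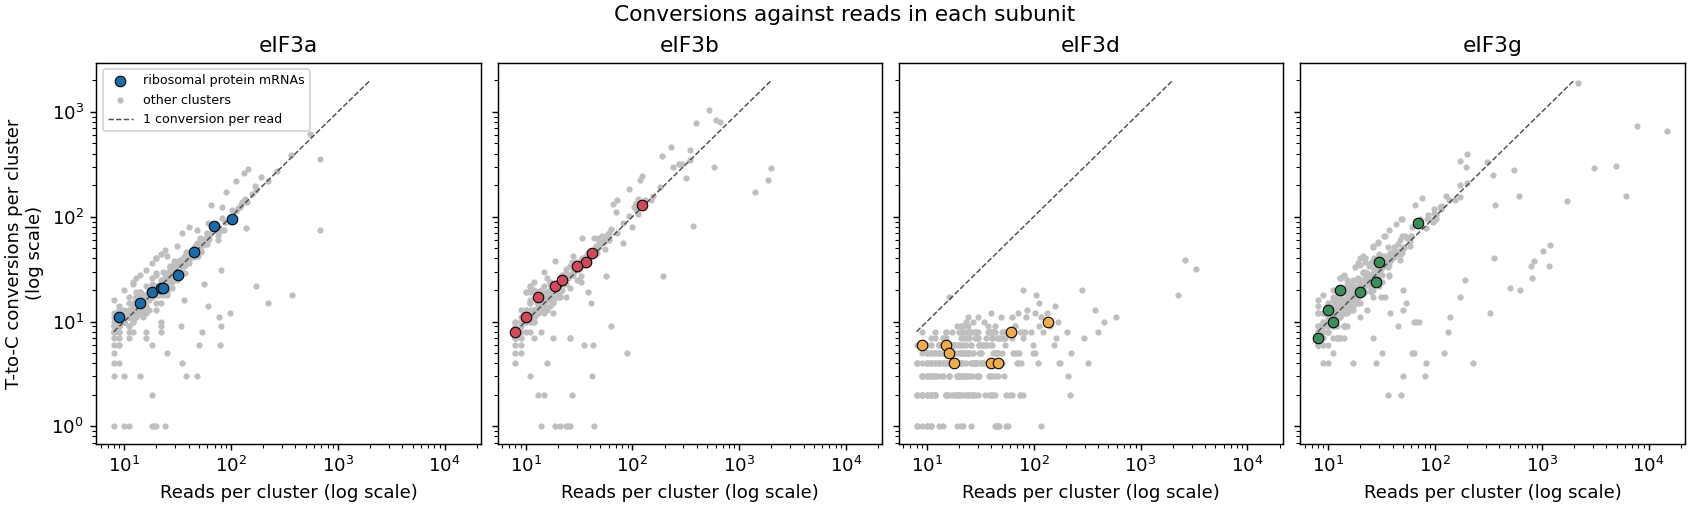
T-to-C conversions against reads per cluster (both log axes) in each subunit, with the ribosomal protein mRNAs as large points, all other clusters in grey and 1 conversion per read as a dashed line. The large points follow the dashed line in eIF3a, eIF3b and eIF3g, while in eIF3d they stay between 4 and 10 conversions from 9 to 136 reads.

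The eIF3g list also holds many clusters far below the dashed line. Summed over clusters, the ribosomal protein mRNAs had 1.14 conversions per read there and all other clusters 0.278. Such a sum is weighted by reads, and the medians per cluster in eIF3g were alike, 1.09 and 1.02. RPL17 and RPL23A, the other cytosolic ribosomal protein genes in the table, are among those with clusters far below the line. RPL17 had 2 conversions in 42 reads in eIF3d and 34 in 794 in eIF3g, and RPL23A had 21 in 501 reads in eIF3g, all in introns. The intronic RPL24 cluster did not share this pattern, since it had 82 conversions in 69 reads in eIF3a, 34 in 30 in eIF3b and 24 in 28 in eIF3g. Per read, RPL24 had 1.19 conversions with eIF3a, 1.13 with eIF3b, 0.131 with eIF3d and 0.857 with eIF3g. The medians of the other intronic clusters were 1.36, 1.85, 0.116 and 1.66.

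The share of each subunit's clustered reads that fell in the 10 genes was 2.21% in eIF3a (335 of 15132 reads, 95% Wilson interval 1.99 to 2.46), 1.58% in eIF3b (304 of 19187, 1.42 to 1.77), 1.41% in eIF3d (341 of 24150, 1.27 to 1.57) and 0.304% in eIF3g (190 of 62405, 0.264 to 0.351). The denominators differ in kind. Noncoding RNA gave 1243 of the reads in eIF3a and 39165 in eIF3g, and without it the shares were 2.41% in eIF3a and 0.818% in eIF3g. Few clusters dominate the totals, so these shares do not give amounts of bound ribosomal protein mRNA.

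Reads were therefore compared between subunits at each place, as a log2 ratio minus the median ratio over all loci that the pair shared. With 1 value per subunit there is no test, and a ratio is called where it lies at least 2-fold from that median. Over 6 pairs, 46 ratios in 9 genes could be formed, of which 11 were called, 10 higher and 1 lower in the subunit named first. For eIF3a over eIF3g, 4 of 8 genes were called higher, beside a background of 19.7% of 284 shared loci, and 0 lower, beside 21.8%. These were RPS2, RPL24, RPL38 and GNB2L1. The median of the 8 was 0.79, where all shared loci have 0 by construction, and 7 of the 8 were above 0.

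For eIF3b over eIF3g, 2 of 7 were called higher, RPS2 and RPS15A, beside 23.6%, and 0 lower, beside 22.7%. For eIF3d over eIF3g, 2 of 7 were called higher, RPS2 and RPL24, beside 18.4%, and 0 lower, beside 19.8%. FAU was below 0 in all 3 pairs with eIF3g, at -0.51 for eIF3a, -0.78 for eIF3b and -0.18 for eIF3d, each within counting error of 0. RPL38 was also below 0 for eIF3b over eIF3g, at -0.10, and RPL35A for eIF3d over eIF3g, at -0.56, which left 5 of 7 above 0 in each of these pairs. The call of RPS15A for eIF3b over eIF3g, at 1.03, was lost without centring, at 0.81. These 3 comparisons share the eIF3g reads and are not independent of one another. They also rest in part on RPS2, which had only 8 reads in eIF3g and gave 3 of the 11 calls. Over all 6 pairs, 11 of the 46 ratios were called in either direction, beside 37.2% of the 1568 ratios at all shared loci.

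The other pairs held few calls. For eIF3a over eIF3b, 1 of 8 was called higher, RPL38, beside 16.2%, and 1 lower, RPL9, beside 21%. The call of RPL9, at -1.56, was lost at -0.95 when reads were scaled by the clustered reads of each subunit in place of centring. For eIF3a over eIF3d, 1 of 8 was called higher, RPL35A, beside 11.7%, and 0 lower, beside 13%. For eIF3b over eIF3d none of the 8 was called, beside 17.8% higher and 19.6% lower. Without centring 3 of the 8 were called lower, RPS2 at -1.28, RPL24 at -1.02 and RPL38 at -1, beside 28.3% of all loci. The centred counts of these 3 pairs were near or below the background.

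The widest single ratio was that of RPS2 for eIF3d over eIF3g, 46 against 8 reads, 5.63-fold above the pair's median (exact 95% interval of the ratio of counts 2.63 to 13.8). RPL24 for eIF3a over eIF3g, 69 against 28 reads, was 2.46-fold above (1.57 to 3.97). RPL9 for eIF3a over eIF3b, 9 against 22 reads, was at 0.339 of the median (0.138 to 0.767). Of the 11 called ratios, 9 had an interval that left out the pair's median, and the 2 others were GNB2L1 for eIF3a over eIF3g and RPL35A for eIF3a over eIF3d. The ratios of RPS4X were closest to the median over all 6 pairs, the widest being 0.58 in log2.

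**Figure D4:**
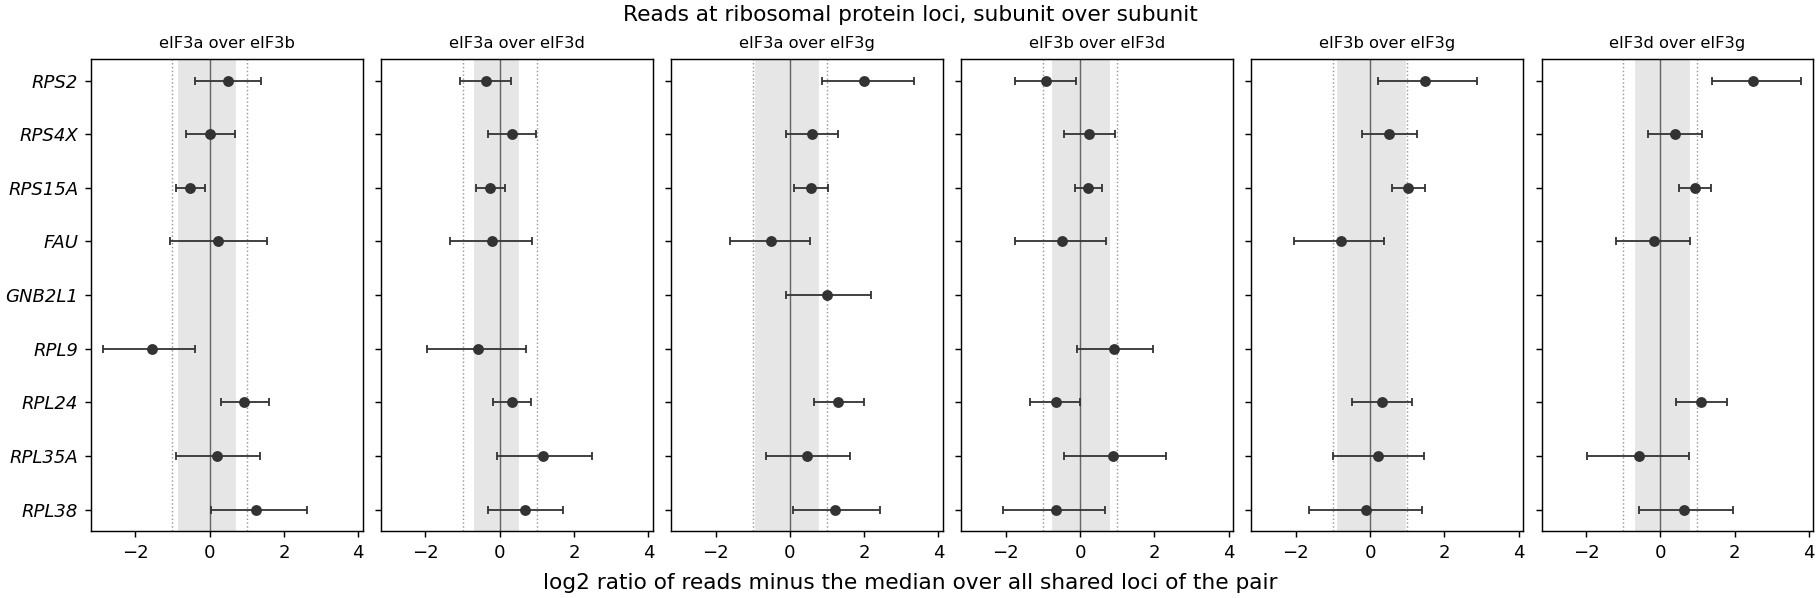
log2 ratio of reads, subunit named first over subunit named second, minus the median over all loci shared by the pair, for the 9 genes with more than 1 subunit. Bars are exact 95% intervals from counting error, the grey band holds the middle 50% of all shared loci and dotted lines mark 2-fold. In the 3 panels with eIF3g most points lie right of 0, with RPS2 farthest at 2.49; FAU lies left of 0 in all 3, RPL38 for eIF3b over eIF3g and RPL35A for eIF3d over eIF3g.

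For context, 12 of 80 cytosolic ribosomal protein genes had a cluster of any kind, 5 of 33 of the small subunit and 7 of 47 of the large, and 9 of the 80 had one in the 5′ UTR. Of 16 other genes known for a terminal oligopyrimidine tract, 5 had a cluster and 2 had one in the 5′ UTR. EEF2, the elongation factor that moves the ribosome along the mRNA, had 22 reads with eIF3a, 14 with eIF3b, 23 with eIF3d and 8 with eIF3g, which is in the range of RPL38. TPT1, a growth-associated protein, had 172, 57, 112 and 368 reads. Unlike in the 10 ribosomal protein mRNAs, the ratio of conversions to reads in TPT1 was well under 1, with 0.128 in eIF3a, 0.474 in eIF3b and 0.351 in eIF3g. In eIF3d it was 0.0804, within the range of the 10 genes there, 0.0735 to 0.667. EEF2 had 0.455 in eIF3a and 0.75 in eIF3g, also below the lowest ratio of the 10 genes in those subunits. It had 1.21 in eIF3b and 0.174 in eIF3d, within their range or near it. The remaining ones, EIF3A, EIF3H and GAS5, had clusters in coding exons, a 3′ UTR or noncoding RNA. mRNA levels of the cells were not measured in these files, and the part of mRNA abundance in these reads was not tested.

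Ribosomal protein genes have many processed copies, and short reads may match several. The RefSeq gene table names 55 pseudogenes after RPS2, 40 after RPS15A, 36 after RPL35A, 31 after RPL9, 23 after RPS4X, 19 after RPL10, 8 after RPL24, 6 after RPL38, 4 after FAU and 3 after RACK1. The sources used here do not give how the authors placed reads with several matches, and the counts of these genes carry that uncertainty. Annotated snoRNA genes lie inside RPS2 (2), GNB2L1 (2) and RPL10 (1), and none inside the other genes, RPL24 included. None of the 10 marker genes of other cell types nor of 5 genes common in 293 lines had a cluster, which with so few genes in the table says nothing about the cells.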

How the data were processed

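RNA crosslinked to eIF3 in 293T cells was sequenced in 12 libraries, 3 for each of 4 subunits. Read counts per cluster were deposited as raw whole numbers, per the file headers, with 1 pooled value per cluster and subunit. Per the submitters' processing notes, cutadapt, Bowtie and bedtools were used with the build hg19. The sources used here do not give versions, the cluster caller, its thresholds, how replicates were combined or whether positions count from 0 or 1. Spans are end minus start.

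All 10 genes were named, by rule. The genes, lists and summaries were chosen with earlier results of these data known. Clusters on 1 strand that overlapped by at least 1 nt formed 558 loci. Reads at loci shared by 2 subunits were compared as log2 ratios, centred on the pair's median and called at 2-fold. Joining and centring were tested on simulated data. Shares carry Wilson intervals, reads exact Poisson intervals and ratios exact conditional intervals, at 95% and for counting error only. The table does not give the depth of a library. Alternatives were thresholds on reads, other denominators, other scalings, other overlaps and reads per nt, and the last, like leaving out eIF3d, was chosen after seeing the data. Python 3.11.15, scipy 1.17.1 and statsmodels 0.14.6 were used.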

Additional observations from a re-analysis of the deposited data

How the results depend on the processing

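Listing in all 4 subunits held for 7 genes by name and by locus (31.0% of all 558 loci), and 7 were listed for the 3 subunits other than eIF3d (40.8% of 448 genes). It fell to 3 genes, RPS4X, RPS15A and RPL24, with clusters at or above their subunit's median (all genes 22.1%), and to 3 with at least 20 reads (22.0%). The 5′ UTR share stayed between 80% and 90% under every alternative run. By gene, the 90% stands beside 69.1% of all genes. For the other alternatives no share over all clusters was made, so their distance from such a background is not known. With the 5 strongest clusters left out, the share of clustered reads was 2.68% with eIF3a, 2.40% with eIF3b, 2.28% with eIF3d and 0.742% with eIF3g, and without noncoding RNA it was 1.60% in eIF3d and 0.818% in eIF3g. Scaled by the clustered reads of each subunit, the median log2 ratio was 2.84 for eIF3a over eIF3g, 1.80 for eIF3b over eIF3g and 2.05 for eIF3d over eIF3g, but the medians over all shared loci were 2.04, 1.48 and 1.40 in the same pairs, since this scaling moves every locus of a pair by the same amount. It called 25 of 46 ratios in place of 11, with 1 call lost, beside 56.7% of all ratios in place of 37.2%. That scaling takes the noncoding reads of eIF3g into its denominator. Without centring 15 were called (5 gained, 1 lost), beside 39.2%, and with a direct overlap of at least 50% of the shorter cluster 11, beside 36.9%. No called ratio changed direction under these 3 alternatives. Percentiles and conversions per read moved by less than the SD between the clusters, which is a wide margin. With 5′ UTR clusters only, ranked among all 5′ UTR clusters of the subunit, the median percentile in eIF3d went from 54.9 to 37.7, beside an SD of 32.9. Clusters of 8 to 20 reads have wide counting intervals, and their ratios are imprecise. Leaving out a replicate was not run, as the table has no replicate column. No paired analysis was possible because the columns carry no replicate number.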
